A study of Mus musculus with 15 samples.

Results

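The integrated stress response and the unfolded protein response of the endoplasmic reticulum were examined through 35 genes in sensory neurons that innervate the hind paw skin of mice. The 35 genes were chosen by name, as kinases, sensors, transcription factors, chaperones and degradation components of both responses, and do not cover every such gene. All 35 were found among the 54108 gene symbols of the table, and all 35 passed the filter on low values (a mean of at least 1 over the libraries), which 16000 symbols passed. The measurement was bulk RNA sequencing of cells sorted from dorsal root ganglia L2 to L6, where the cell bodies of these neurons lie. The ganglia were dissociated with enzymes and by trituration before sorting, and what this step added to the levels was not tested. The cells had taken up wheat germ agglutinin coupled to a green dye (WGA-488) that was injected into the skin of both hind paws before surgery, and about 3000 sorted cells of 1 mouse gave 1 library.

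All mice were female C57BL/6J mice of 8 to 12 weeks, and 15 libraries were compared. The 5 spinal cord injury (SCI) mice had a laminectomy at T10 and a compression of the cord with a vessel clip. The 5 sham mice had the laminectomy without the clip, and the 5 naïve mice had no surgery. Cells were taken 4 days after surgery, and operated mice received antibiotics and saline but no analgesics. The SCI and sham mice were caged singly and the naïve mice were group-housed, so surgery and housing cannot be told apart when sham is set against naïve. The injury lay in the spinal cord, away from the ganglia that were sampled. In bulk libraries, fewer cells of a type and less RNA per cell cannot be told apart.

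In the integrated stress response, kinases that sense different kinds of stress phosphorylate the translation factor eIF2α, which lowers general protein synthesis while favouring translation of ATF4, a transcription factor for amino acid synthesis and redox genes. In the unfolded protein response, the sensors PERK, IRE1α and ATF6 answer misfolded protein in the endoplasmic reticulum (ER) by raising chaperones, folding enzymes and the machinery that removes misfolded proteins. PERK is also an eIF2α kinase, so it joins both responses. Much of this control acts on translation, phosphorylation, splicing and proteolysis, and none of these steps is read by a count of transcripts per gene.

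Chaperone genes of the ER are known for a promoter motif, the ER stress element, which consists of CCAAT, 9 bases of any kind, and CCACG. RefSeq promoter windows (250 bases before to 50 after the start, build GRCm38.p6) were at hand for 30 of the 35 genes and were searched on both strands. Manf, Hyou1, Creb3l1, Atf6 and Ppp1r15b had none. The complete ER stress element was found in 7 of the 30 (23.3%), against 0.119% of the 32851 windows of all genes. Its CCAAT part alone was found in 24 of the 30, against 37.4% of all windows. The amino acid response element TGATGNAA, to which ATF4 binds, was found in 4 of the 30 (Asns, Chac1, Herpud1 and Trib3), against 3.97% of all windows, and the 7-letter core TGACGTG of the unfolded protein response element in Hspa5 alone, against 2.01%. In Hspa5 the core lies at positions -157 to -151 from the start, apart from the ER stress element at -65 to -47. A match is a description of letters and was not tested as a binding site. The members were chosen as known genes of these responses, so their high share with the element was set in part by that choice. Shares of members count genes, while those of all genes count windows. The stretches with a complete ER stress element, and 1 amino acid response element for contrast, are shown because the chaperones that carry the element recur in the results. Each reads 5′ to 3′ on the strand of its gene, and the capitals mark the outer parts of the element or, for Asns, the whole motif.
Hspa5: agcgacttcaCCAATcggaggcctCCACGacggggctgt
Calr: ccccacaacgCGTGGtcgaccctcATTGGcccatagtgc
Canx: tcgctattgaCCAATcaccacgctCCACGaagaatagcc
Hsp90b1: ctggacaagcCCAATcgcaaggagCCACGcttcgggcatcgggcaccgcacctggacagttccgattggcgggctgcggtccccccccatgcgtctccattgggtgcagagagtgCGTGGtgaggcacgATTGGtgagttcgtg
Pdia6: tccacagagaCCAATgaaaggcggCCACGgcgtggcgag
Dnajc3: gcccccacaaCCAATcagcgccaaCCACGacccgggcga
Syvn1: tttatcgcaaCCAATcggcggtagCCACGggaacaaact
Asns: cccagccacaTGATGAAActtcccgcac

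These stretches lie at chr2:34772015-34772053 (Hspa5, plus strand), chr8:84847065-84847103 (Calr, minus), chr11:50325790-50325828 (Canx, minus), chr10:86705523-86705666 (Hsp90b1, minus), chr12:17266481-17266519 (Pdia6, plus), chr14:118937817-118937855 (Dnajc3, plus), chr19:6046522-6046560 (Syvn1, plus) and chr6:7693215-7693242 (Asns, minus), all upstream of the start site. Hsp90b1 held 2 elements, 1 on each strand, and Calr held its element on the strand opposite to the gene.

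Library depth ranged from 3000636 to 4385542 reads in SCI (median 3698926), from 2568656 to 7389487 in sham (median 5815348) and from 1321632 to 7465583 in naïve libraries (median 2532675). Depth here is the sum of the reads assigned to genes, recovered from the deposited values, and not the number of reads sequenced. The paper states a higher total of reads per sample and gives RNA quality as a range, not by library. What made this depth differ between libraries was not tested. Sham replicate 2 was the shallowest sham library, naïve replicate 5 the deepest naïve library, and naïve replicates 1 and 4 the 2 shallowest of all. Values are given as CPM, reads scaled to the size of the library. All 9 sensory neuron markers had means of at least 231 CPM and summed to 3331 to 4101 CPM in SCI, 2701 to 4417 CPM in sham and 2827 to 6044 CPM in naïve libraries. Macrophage (7 genes) and endothelial markers (6 genes) had means of at most 8.89 and 4.45 CPM. Markers of satellite glia (8 of 8 genes above 10 CPM), Schwann cells (5 of 7) and fibroblasts (6 of 6) were present, and none of the markers was at 0 in every library. The summed fibroblast markers (6 genes) ranged from 357 to 763 CPM in SCI, from 468 to 718 in sham and from 379.5 to 1832 in naïve libraries. Their part in the results was not tested.

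The first question was how strongly the 35 genes were expressed. Levels of different genes are compared in CPM per kilobase of exon (build GRCm38). The highest level was that of Calr (calreticulin, a chaperone that binds sugar chains of new glycoproteins) at 73.8 CPM per kb. Pdia3, the disulfide isomerase that works with calreticulin, followed at 68.4, and Canx (calnexin, its membrane-bound relative) at 67.8 CPM per kb. Next in order were Ddit4 (60.5), Atf4 (59.5), Ppp1r15a (55.9), Hspa5 and Hsp90b1 (51.1 CPM per kb). Neighbours in this order differed by less than the SD between naïve libraries, and the order among these 8 is a description only. The lowest levels were those of Creb3l1 (5.59), Chac1 (3.86), Sesn2 (3.80) and Trib3 (2.75 CPM per kb). Every one of the 35 genes had at least 2 reads in every library, and 33 had a mean above 10 CPM. Chac1 and Trib3 were the exceptions.

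**Figure D1:**
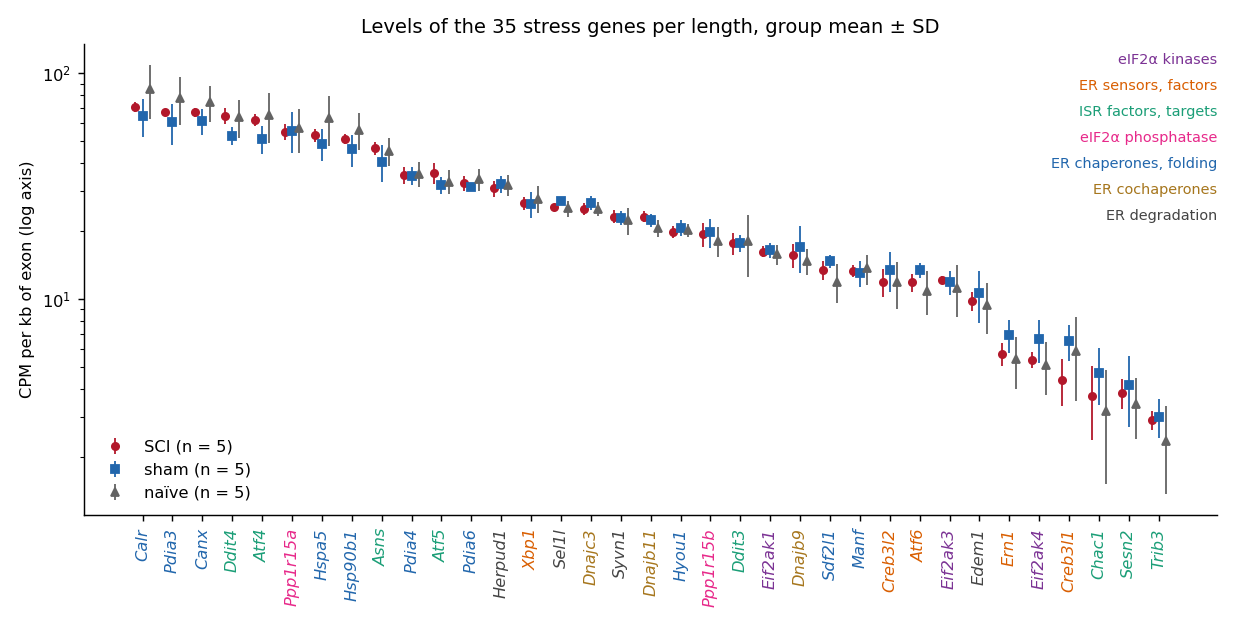
Levels of the 35 genes in CPM per kilobase of exon (log axis), ordered from high to low, as group mean ± SD of 5 SCI, 5 sham and 5 naïve libraries, with gene names coloured by role. Calr, at 73.8 CPM per kb over all libraries, stands at the left and Trib3, at 2.75, at the right, and the SD bars of the 3 groups overlap for most genes.

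Summed over the 35 genes, the level was 3613 ± 81.9 CPM in SCI, 3524 ± 103 in sham and 3754 ± 249 CPM in naïve libraries (SD, n = 5 each). The spread between libraries differed between the groups. The coefficient of variation of a gene had a median over the 35 genes of 7.86% in SCI, 13.3% in sham and 19.1% in naïve libraries. It was smallest in SCI for 28 of the 35 genes, in sham for 7 and in naïve for 0. Over all 16000 genes the shares were 55.8%, 35.2% and 9.06% in the same order, so SCI was most often the group of the smallest spread among all genes too. The SCI libraries also covered the narrowest range of depth.

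Over the fit of all 16000 genes with limma, no gene passed an adjusted p of 0.05 in any of the 3 comparisons, and so none of the 35 did (0 of 35 in each, against 0% of all genes). At an unadjusted p under 0.05, 1 of the 35 genes was higher and 1 lower in SCI than in sham (all genes: 0.65% and 3.24%). In SCI against naïve 0 were higher and 0 lower (all genes: 3.73% and 0.794%). In sham against naïve 3 were higher and 7 lower (all genes: 13.4% and 3.19%). The values below are therefore given as measured differences that did not pass the correction. All log2 differences are on the log2(CPM + 1) scale. The median log2 difference of all genes was itself not at 0: it was -0.07 for SCI against sham, 0.08 for SCI against naïve and 0.17 for sham against naïve. Median-ratio rescaling of the libraries brought the last of these to 0.04.

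**Figure D2:**
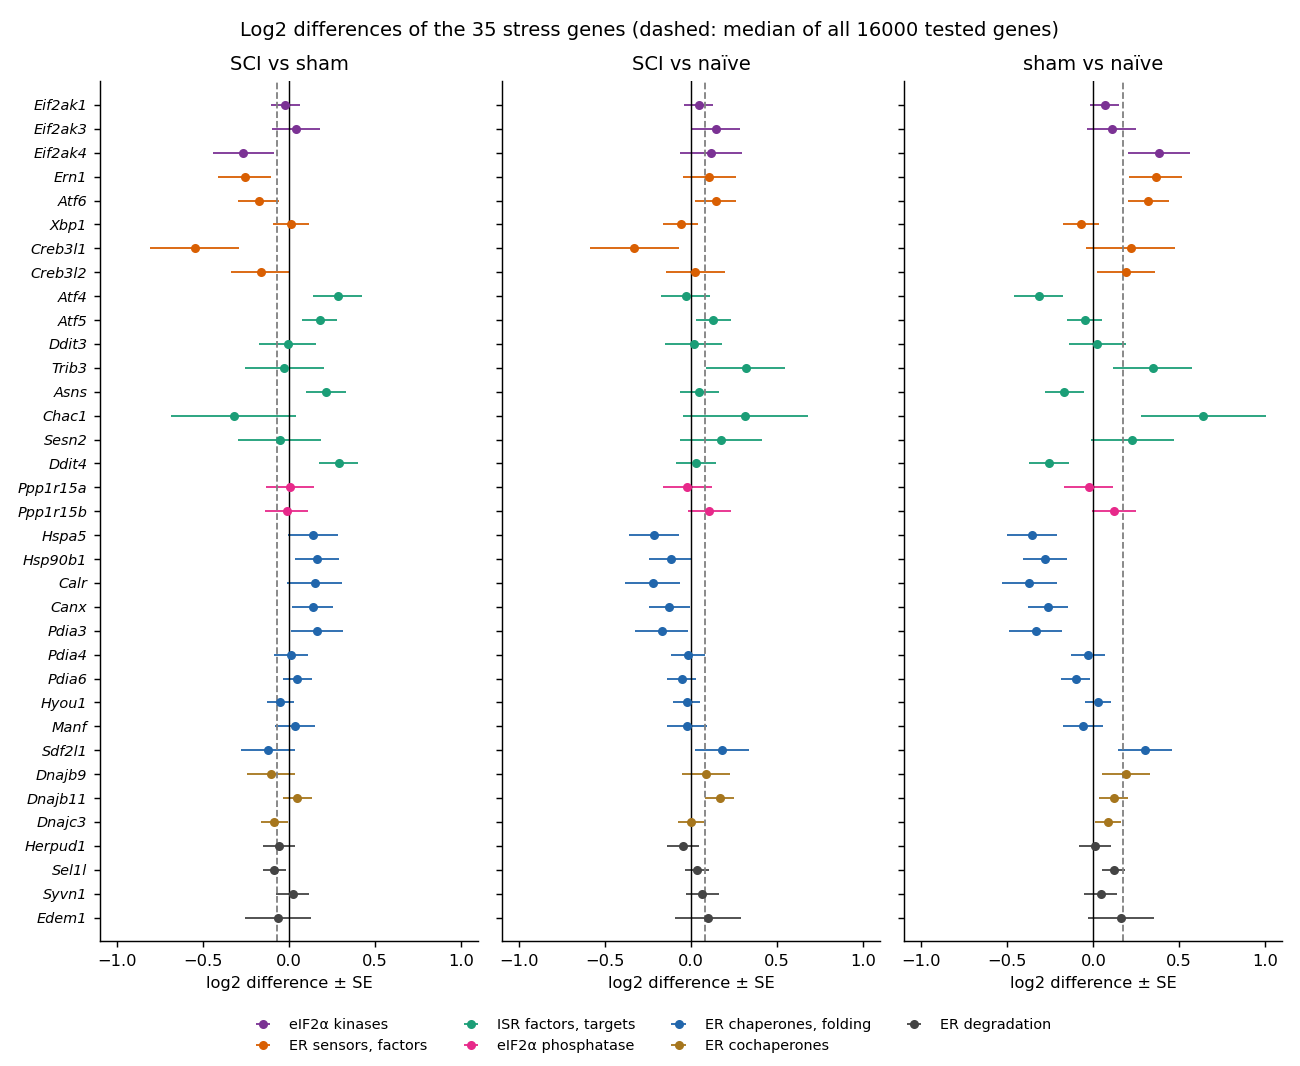
Log2 differences of the 35 genes in the 3 comparisons, with bars of 1 SE from the limma fit over 15 libraries, coloured by role. The dashed line is the median of all 16000 genes. No gene passed the corrected threshold, and Hspa5, Calr, Hsp90b1, Canx and Pdia3 lie left of the median line in sham against naïve, at -0.26 to -0.37.

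The comparison of SCI with sham asks what the cord injury added to the surgery. None of the 3 eIF2α kinases had an unadjusted p under 0.05 here. Eif2ak1 (the heme-regulated kinase) had a mean of 91.9 ± 5.32 CPM in SCI and 93.4 ± 7.02 CPM in sham, and Eif2ak3 (PERK) had 72.9 ± 2.77 CPM in SCI and 71.3 ± 8.64 CPM in sham. Eif2ak4 (GCN2, which senses uncharged transfer RNA) had 40.1 ± 3.38 CPM in SCI and 49.4 ± 10.6 CPM in sham (SD, n = 5 each).

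Among the transcription factors and targets of the integrated stress response, the difference with the smallest p in limma was that of Ddit4 (REDD1, a restraint on the growth kinase mTORC1; chr10:59949669-59951834, minus strand). Ddit4 stood at 119, 101, 119.6, 121 and 106 CPM in the SCI libraries, against 94.3, 96.4, 103, 79.1 and 91.0 CPM in the sham libraries. The lowest SCI library lay just below the highest sham library, so the groups overlapped by that 1 pair. The log2 difference was 0.29 ± 0.12 (SE; limma, unadjusted p = 0.023, adjusted p = 0.897). Atf4, the central transcription factor of the response (chr15:80255184-80257541, plus strand), stood at 148, 146, 143, 134 and 161 CPM in SCI, against 104, 150.0, 115, 121 and 114 CPM in sham. Sham replicate 2, the shallowest sham library, was the only sham library inside the SCI range. Its log2 difference was 0.28 ± 0.14 (SE; limma, unadjusted p = 0.062, adjusted p = 0.897).

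Asns, the asparagine synthetase gene and a classic target of ATF4, stood at 122, 135, 137, 116 and 126 CPM in SCI and at 109.5, 146, 104, 95.1 and 98.2 CPM in sham. Again sham replicate 2 was high and the other 4 sham libraries lay below every SCI library. The log2 difference was 0.21 ± 0.11 (SE; limma, unadjusted p = 0.077, adjusted p = 0.897). Atf5, a relative of Atf4 that is also under translational control, stood at 73.8, 65.8, 80.1, 77.5 and 62.8 CPM in SCI and at 72.2, 57.7, 62.6, 60.5 and 64.0 CPM in sham. The ranges overlapped, with a log2 difference of 0.18 ± 0.10 (SE; limma, unadjusted p = 0.097, adjusted p = 0.897). In both count models Atf5 had the smallest p of the 35 genes, with a log2 difference of 0.26. It did not pass the correction (DESeq2, unadjusted p = 0.00916, adjusted p = 0.725; edgeR, unadjusted p = 0.00973, adjusted p = 0.734). Of the members, 2 were higher at an unadjusted p under 0.05 in each model, against 1.85% (DESeq2) and 2.25% (edgeR) of all genes. Over all 8 genes of this role the median log2 difference was 0.09, against -0.07 over all genes, and 4 of the 8 were positive.

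Ddit3 and Trib3 are the customary readouts of a strong integrated stress response. Ddit3 encodes CHOP, a factor linked to death of cells under unresolved stress. Ddit3 stood at 28.3, 35.8, 27.3, 29.2 and 30.4 CPM in SCI, at 32.0, 26.8, 28.5, 33.5 and 30.9 CPM in sham and at 20.6, 28.5, 24.8, 44.6 and 35.7 CPM in naïve libraries. The group means lay within 1 CPM of each other (30.2, 30.3 and 30.8 CPM in the same order), and the naïve libraries spread the widest. A second gene model overlaps Ddit3 in the annotation, so its count may be incomplete. Trib3, a pseudokinase induced by CHOP, stood at 5.94, 6.68, 6.26, 6.72 and 5.23 CPM in SCI, at 8.10, 4.88, 5.50, 6.70 and 6.66 CPM in sham and at 3.95, 3.57, 3.31, 5.85 and 8.30 CPM in naïve libraries. At these low levels the SCI range lay inside the sham range and inside the naïve range.

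In the group of ER sensors and transcription factors, Creb3l1 (OASIS, a membrane-bound relative of ATF6) was the only one of the 35 genes that was lower in SCI than in sham at an unadjusted p under 0.05. It stood at 9.62, 13.6, 7.91, 11.4 and 14.3 CPM in SCI and at 20.3, 15.9, 20.0, 13.4 and 15.1 CPM in sham. The 2 highest SCI libraries overlapped the lowest sham library. The log2 difference was -0.55 ± 0.26 (SE; limma, unadjusted p = 0.049, adjusted p = 0.897). Xbp1, whose messenger RNA is spliced by IRE1α, stood at 78.1, 85.2, 94.2, 86.3 and 86.2 CPM in SCI, at 74.0, 102, 92.4, 79.3 and 80.8 CPM in sham and at 85.4, 82.1, 88.1, 112 and 83.8 CPM in naïve libraries. The 3 ranges overlapped, and gene counts do not separate the spliced from the unspliced form.

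Of the 10 chaperone and folding genes, 8 were higher in SCI than in sham by point estimate, and none passed the test. Their median log2 difference was 0.09, against -0.07 for all genes. The summed level of the 10 genes was 1573 ± 54.6 CPM in SCI and 1470.5 ± 166 CPM in sham (SD, n = 5 each). Among the degradation genes, Sel1l, the adaptor that holds the ubiquitin ligase complex of ER-associated degradation together, was the only member with no overlap between 2 groups in any comparison. It stood at 218, 225, 221, 214 and 219 CPM in SCI and at 235, 226, 232, 239.8 and 232 CPM in sham. The highest SCI and the lowest sham library were only 225 and 226 CPM, and the log2 difference was -0.09 ± 0.07 (SE; limma, unadjusted p = 0.230, adjusted p = 0.897). The median of all genes was -0.07 in this fit. The log2 difference of Sel1l was -0.01 in DESeq2 and in edgeR, so the separation depended on the scaling. In this comparison 1 of 35 members was lower without overlap, against 1.26% of all genes, and 0 of 35 were higher, against 0.256%. For p under 0.05 the counts of 1 higher and 1 lower stand against 0.65% and 3.24% of all genes. Over the 15 fits that each left out 1 library, the count of higher members ranged from 0 to 3 (0 without SCI replicate 4 or sham replicate 4, 3 without sham replicate 2). The count of lower members ranged from 0 to 2. Without sham replicate 2, 4.79% of all genes were higher and 10.1% lower, so the counts of all genes moved too. The count of lower members was 2 in that fit, and it was 0 without SCI replicate 1, 3 or 4, sham replicate 1, 3 or 5, or naïve replicate 1 or 2.

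**Figure D3:**
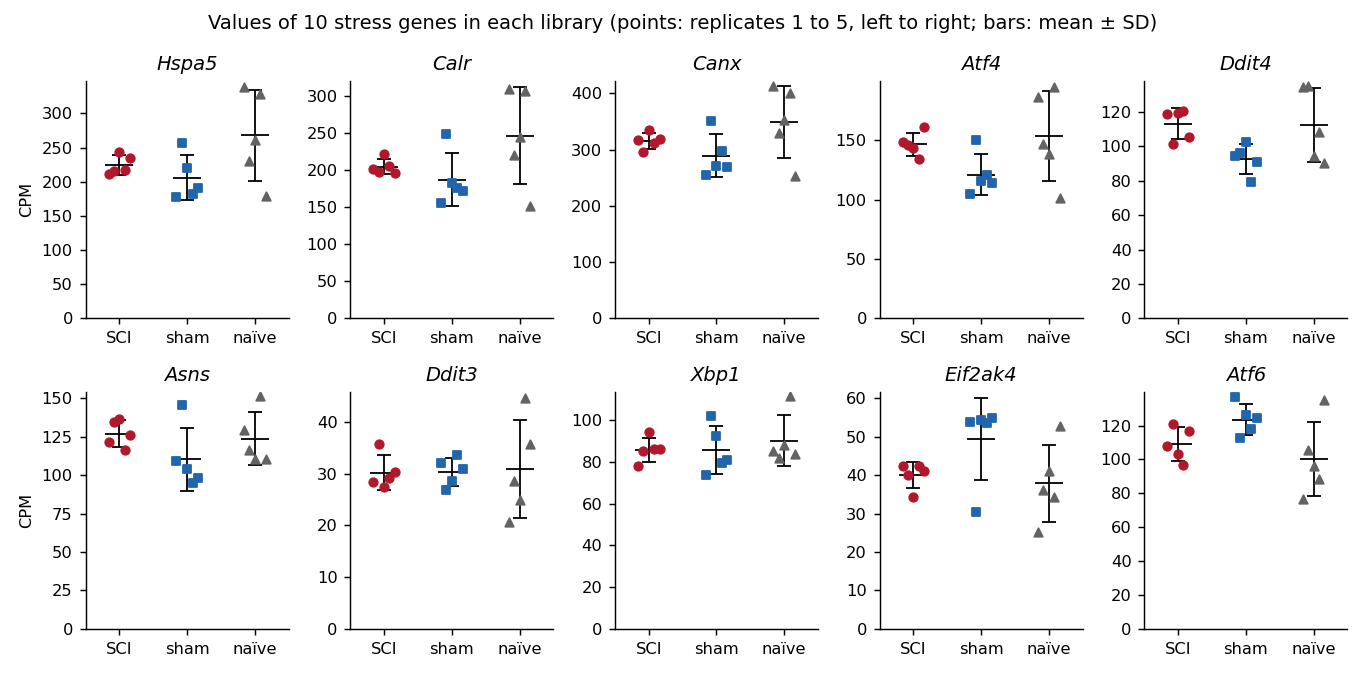
CPM of 10 genes in each library, with the SCI, sham and naïve libraries side by side, points for replicates 1 to 5 and bars for the mean ± SD (n = 5). The 5 SCI libraries lie close together, Hspa5 at 211 to 244 CPM for example, while the naïve libraries spread from 179.7 to 339 CPM for the same gene.

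The comparison of SCI with naïve sets the injury together with the surgery and the housing against untouched mice. No member reached an unadjusted p under 0.05 in either direction, against 3.73% of all genes higher and 0.794% lower. No member was without overlap, against 0.325% of all genes higher and 0.138% lower. The smallest p was that of Dnajb11, a soluble ER cochaperone that hands unfolded proteins to BiP. Dnajb11 stood at 79.8, 73.0, 72.2, 78.8 and 70.5 CPM in SCI and at 64.8, 74.6, 67.8, 58.5 and 68.2 CPM in naïve libraries. Only naïve replicate 2 lay inside the SCI range, and the log2 difference was 0.16 ± 0.08 (SE; limma, unadjusted p = 0.066, adjusted p = 0.898).

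Hspa5 encodes BiP, the main chaperone of the ER and the partner that holds its sensors inactive (chr2:34771970-34777547, plus strand). It stood at 211, 215, 244, 217 and 235 CPM in SCI and at 339, 231, 262, 328 and 179.7 CPM in naïve libraries. Naïve libraries lay on both sides of the SCI range. The log2 difference was -0.22 ± 0.15 (SE; limma, unadjusted p = 0.155, adjusted p = 0.898), and without the 2 shallowest libraries, naïve replicates 1 and 4, it was 0.02. Calr (chr8:84841850-84846934, minus strand) stood at 201, 198, 222, 205 and 196 CPM in SCI and at 309, 219.9, 245, 306 and 152 CPM in naïve libraries. Its log2 difference of -0.22 ± 0.16 (SE; limma, unadjusted p = 0.177, adjusted p = 0.898) was likewise 0.02 without those 2 libraries.

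Trib3 and Creb3l1 complete the 5 members with the smallest p in this comparison. The log2 difference of Trib3 was 0.32 ± 0.23 (SE; limma, unadjusted p = 0.183, adjusted p = 0.898). Creb3l1 stood at the SCI values given above and at 13.4, 14.3, 6.62, 19.7 and 22.6 CPM in naïve libraries, with a log2 difference of -0.33 ± 0.26 (SE; limma, unadjusted p = 0.218, adjusted p = 0.898). Over the 35 genes the median log2 difference was 0.03, against 0.08 for all genes. Without naïve replicate 5, the deepest naïve library, 3 members were higher (13.1% of all genes) and 5 lower (2.99% of all genes) at an unadjusted p under 0.05, and none passed the correction.

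The comparison of sham with naïve asks what surgery and single housing did without a cord injury. It held the most differences at an unadjusted p under 0.05 in the fit shared by all 15 libraries. At an unadjusted p under 0.05, 7 of the 35 genes were lower in sham (against 3.19% of all genes) and 3 were higher (against 13.4% of all genes). The 7 lower genes were Hspa5, Calr, Hsp90b1, Canx, Pdia3, Atf4 and Ddit4, that is, 5 ER chaperones and folding enzymes and 2 genes of the integrated stress response. The 3 higher genes were Atf6, Ern1 and Eif2ak4, that is, 2 ER stress sensors and an eIF2α kinase. These counts depend on the SCI libraries in the shared estimate of the spread. With only sham and naïve libraries in the fit, 1 member was higher (Atf6; 8.03% of all genes) and 0 were lower (1.38% of all genes), at the same log2 differences. With only SCI and sham libraries in the fit, 2 members were higher in SCI (2.19% of all genes) and 2 lower (6.8% of all genes). The order of the comparisons thus depended on the shared estimate. Every one of the 10 had overlapping groups, as had all 35 members in this comparison, against 0.588% of all genes higher and 0.0563% lower without overlap.

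Hspa5 stood at 178, 257, 221, 182 and 191 CPM in sham, against the naïve values of 339, 231, 262, 328 and 179.7 CPM. Sham replicate 2 lay among the naïve libraries and naïve replicate 5 among the sham libraries. The log2 difference was -0.36 ± 0.15 (SE; limma, unadjusted p = 0.026, adjusted p = 0.300). Calr stood at 155, 248, 183, 176 and 171 CPM in sham, against 309, 219.9, 245, 306 and 152 CPM in naïve libraries. The same 2 libraries crossed over, and the log2 difference was -0.37 ± 0.16 (SE; limma, unadjusted p = 0.031, adjusted p = 0.300).

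Canx stood at 255, 351, 271, 298 and 269 CPM in sham, against 413, 329, 353, 401 and 253 CPM in naïve libraries. Pdia3 stood at 159.6, 256, 180.4, 192 and 164 CPM in sham, against 311, 227, 244, 281 and 155 CPM in naïve libraries. Hsp90b1, the ER form of the HSP90 chaperones, stood at 153, 234, 190.0, 174 and 176 CPM in sham, against 272, 214, 248, 239 and 161 CPM in naïve libraries. In all 3 genes sham replicate 2 was the highest sham library and naïve replicate 5 the lowest naïve library. Their log2 differences were -0.26 ± 0.12 for Canx, -0.34 ± 0.15 for Pdia3 and -0.28 ± 0.13 for Hsp90b1 (SE; limma, adjusted p = 0.301 each).

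The other chaperone and folding genes had log2 differences of -0.10 (Pdia6), -0.06 (Manf), -0.03 (Pdia4), 0.03 (Hyou1) and 0.30 (Sdf2l1), none at an unadjusted p under 0.05 in limma. Whether they differ from the 5 lower genes was not tested. Pdia6 was at an unadjusted p under 0.05 in both count models, with a log2 difference of -0.25 in DESeq2 and -0.24 in edgeR. Of the 7 genes with a complete ER stress element in the promoter stretches shown above, 4 (Hspa5, Calr, Canx and Hsp90b1) were among the lower genes at an unadjusted p under 0.05. The other 3 had log2 differences of -0.10 (Pdia6), 0.09 (Dnajc3, an inhibitor of PERK) and 0.04 (Syvn1, the ubiquitin ligase of ER-associated degradation). Pdia3 was among the lower genes and its window held CCAAT but no complete element.

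Atf4 stood at 104, 150.0, 115, 121 and 114 CPM in sham, against 187, 147, 139, 195 and 102 CPM in naïve libraries. Its log2 difference was -0.32 ± 0.14 (SE; limma, unadjusted p = 0.039, adjusted p = 0.301). Ddit4 stood at the sham values given above, against 134, 135, 94.3, 108 and 90.1 CPM in naïve libraries, with a log2 difference of -0.26 ± 0.12 (SE; limma, unadjusted p = 0.037, adjusted p = 0.300). In both genes naïve replicate 5 was the lowest naïve library.

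Atf6, the sensor that is cut in the Golgi to release a transcription factor, stood at 137, 113, 126, 118 and 124 CPM in sham, against 76.7, 105, 95.9, 88.4 and 135 CPM in naïve libraries. Only naïve replicate 5 lay above any sham library. The log2 difference was 0.32 ± 0.12 (SE; limma, unadjusted p = 0.015, adjusted p = 0.300), the smallest p of the 35 genes in this comparison. Ern1, which encodes IRE1α, stood at 63.6, 41.9, 62.4, 51.4 and 63.0 CPM in sham, against 43.5, 38.9, 40.1, 34.4 and 63.7 CPM in naïve libraries. Its log2 difference was 0.36 ± 0.15 (SE; limma, unadjusted p = 0.030, adjusted p = 0.300). Eif2ak4 stood at 53.7, 30.5, 54.4, 53.4 and 54.9 CPM in sham, against 25.3, 36.0, 40.9, 34.4 and 52.7 CPM in naïve libraries, with a log2 difference of 0.38 ± 0.18 (SE; limma, unadjusted p = 0.048, adjusted p = 0.301). Sham replicate 2 was the lowest sham library in all 3 genes.

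The direction of the higher genes needs the scaling beside it. Under median-ratio rescaling the 3 higher genes kept positive differences of 0.18 (Atf6), 0.22 (Ern1) and 0.24 (Eif2ak4), but 0 members were higher and 8 lower at an unadjusted p under 0.05. Over all genes the split moved to 909 higher and 1150 lower, against 2141 higher and 510 lower on the deposited scaling. With DESeq2 on the reads recovered from the values, its automatic filter left an adjusted p to 1111 genes, 6 of the 35 among them. Of these 6, 2 fell in sham, against 21% of the 1111 genes: Hspa5 (log2 difference -0.54, adjusted p = 0.0494) and Calr (-0.56, adjusted p = 0.0499). Both calls were lost with the filter set at 0.1. Canx, Hsp90b1 and Pdia3 missed the threshold (DESeq2, adjusted p = 0.0527 each), and Sel1l was the sixth. The other 29 members, Atf6, Ern1 and Eif2ak4 among them, got no adjusted p and could not be called. With edgeR, which adjusted all 16000 genes, 0 genes were called, members included (adjusted p = 0.441 for these 5 genes; 620 genes higher and 1100 lower at an unadjusted p under 0.05).

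Single libraries weighed on this comparison. Without naïve replicate 5, 2 members rose (Atf6 and Ern1) and 6 fell in sham (Hspa5, Calr, Hsp90b1, Canx, Pdia3 and Atf4; limma, adjusted p under the threshold), while 1212 of all genes rose and 540 fell. The count of lower members at an unadjusted p under 0.05 was 7 with all libraries. It was 0 without naïve replicate 1 or sham replicate 5, 1 without naïve replicate 4, sham replicate 1 or sham replicate 4, 3 without naïve replicate 3, and 4 without naïve replicate 2 or sham replicate 3. It was 8 without sham replicate 2. The count of higher members was 3 with all libraries and ranged from 1 (without naïve replicate 2 or 4, or sham replicate 1, 3 or 5) to 6 (without naïve replicate 5). Over all genes the share of higher genes ranged from 6.71% (without naïve replicate 4) to 28.2% (without naïve replicate 5) and that of lower genes from 0.613% (without naïve replicate 4) to 7.1% (without naïve replicate 5).

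The libraries that crossed between the groups were also those of unusual depth, so each member was set against the depth of its library, with group means removed. For Hspa5 the correlation with log2 reads over the 15 libraries was r = -0.97 (permutation p = 4e-05, adjusted over 103 relations p = 0.00268) with rho = -0.93 (permutation p = 6e-05, adjusted p = 0.00549). Without naïve replicate 5 and sham replicate 2, the 2 libraries farthest from the median depth once group means were removed, r was -0.94. For Calr r was -0.98 (permutation p = 0.00025, adjusted p = 0.00366) with rho = -0.89 (permutation p = 0.00114, adjusted p = 0.0107), and r was -0.94 without those libraries. Canx had an r of -0.97 (rho = -0.90), Pdia3 of -0.97 (rho = -0.91), Atf4 of -0.96 (rho = -0.74) and Hsp90b1 of -0.93 (rho = -0.90), with permutation p adjusted to at most 0.00427 for r and 0.0446 for rho. Without the 2 libraries their r was -0.93, -0.92, -0.91 and -0.82. The fewer reads a library had, the higher was the share of its reads that came from these 6 genes.

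**Figure D4:**
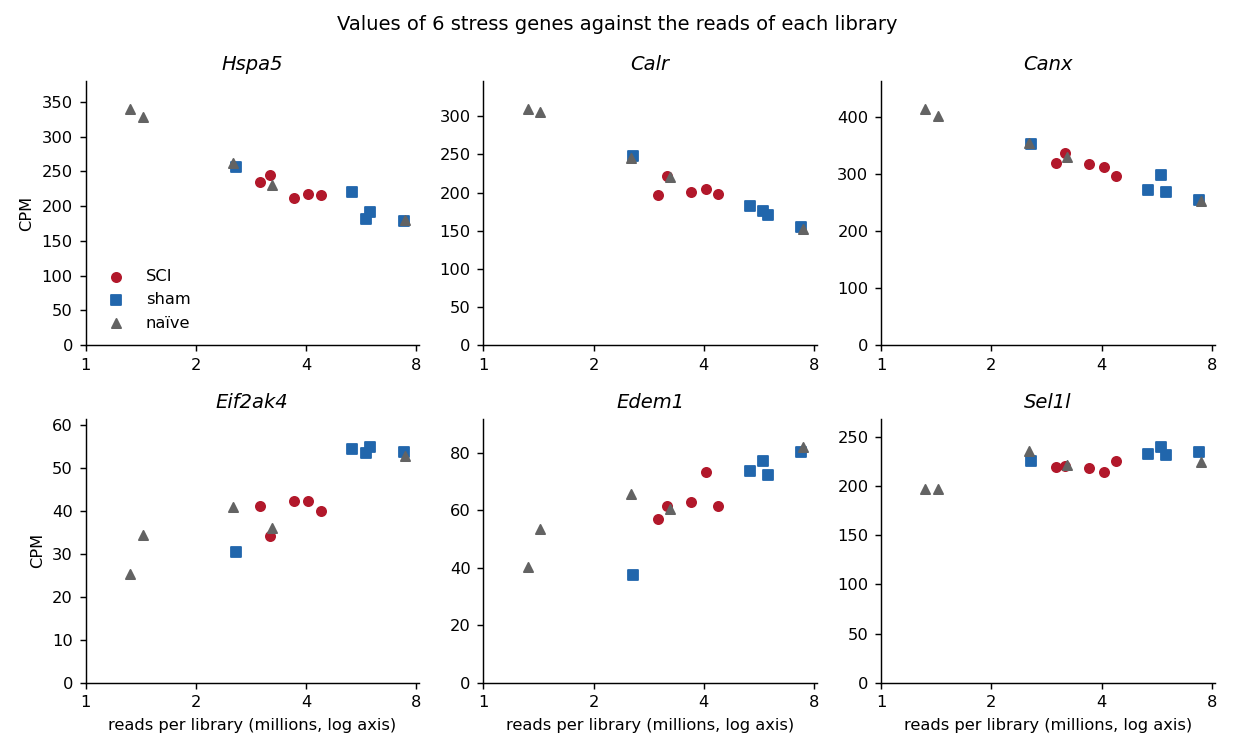
CPM of 6 genes against the reads of each library (log axis), with SCI, sham and naïve libraries marked by colour and shape. The values of Hspa5, Calr and Canx fall as depth grows, those of Eif2ak4 and Edem1 grow with it, and Sel1l stays between 197 and 239.8 CPM in the 15 libraries.

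On the deposited scaling other members moved the other way. The correlation with depth was r = 0.86 for Edem1 (a mannosidase-like factor of ER-associated degradation), Syvn1 and Eif2ak4 and r = 0.85 for Atf6, with rho between 0.68 and 0.80. Their permutation p was adjusted to at most 0.0106 for r and 0.0624 for rho, and r was 0.74 to 0.84 without the same 2 libraries. In all, 8 of the 35 genes had an r above 0.7 and 6 an r below -0.7, against 22.8% and 8.34% of all 16000 genes. The relation to depth was thus found across the transcriptome and not only in stress genes. With median-ratio rescaling r was -0.98 for Hspa5, 0.76 for Edem1 and 0.33 for Syvn1. Only Edem1 and Eif2ak4 (0.74) then stayed above 0.7, and Dnajc3 moved from 0.72 to -0.43. Xbp1 (-0.84), Asns (-0.84), Herpud1 (-0.83), Manf (-0.82), Pdia6 (-0.82) and Ddit4 (-0.73) were then also below -0.7. The counts above thus depended on the scaling, and shares of all genes are not given for the rescaled values.

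Depth was then entered as a covariate. The sham against naïve differences became 0.00 ± 0.06 for Hspa5, 0.03 ± 0.06 for Calr, 0.01 ± 0.05 for Canx, 0.04 ± 0.06 for Pdia3, 0.01 ± 0.07 for Hsp90b1 and 0.03 ± 0.07 for Atf4 on the log2 scale (SE; limma). Those of Atf6, Ern1 and Eif2ak4 became 0.08 ± 0.09, 0.09 ± 0.13 and -0.0012 ± 0.13. No member was then at an unadjusted p under 0.05 in this comparison, against 10 of 35 without the covariate. The shares of all genes fell too, to 0.925% higher and 1.07% lower, from 13.4% and 3.19% without it. In SCI against sham, Ddit4 kept a difference of 0.23 ± 0.11 (SE; limma, unadjusted p = 0.049) and Atf5 one of 0.22 ± 0.10 (SE; limma, unadjusted p = 0.035), both with an adjusted p that rounds to 1.00, while Atf4 had 0.11 ± 0.06 (SE). Ddit4 and Atf5 were the only members under 0.05 there, both higher, against 1.54% of all genes higher and 1.76% lower. Depth and group were partly aligned, since sham libraries were mostly deep and naïve libraries mostly shallow, and how far the differences belong to depth or to surgery cannot be told apart.

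**Figure D5:**
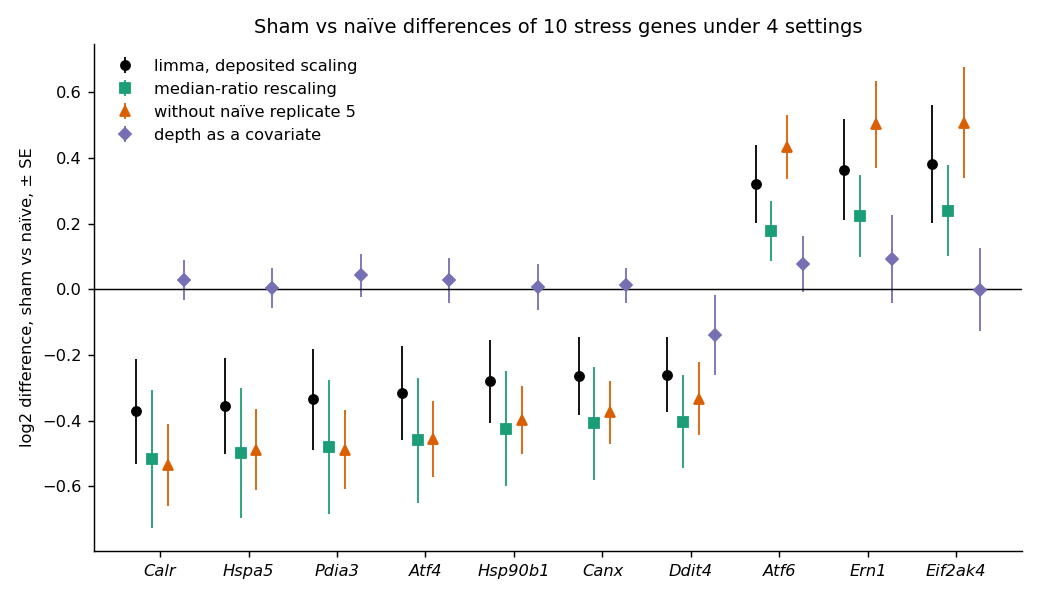
Log2 differences of sham against naïve libraries (± SE) for the 10 members at an unadjusted p under 0.05, in 4 settings: limma on the deposited scaling, after median-ratio rescaling, without naïve replicate 5, and with depth as a covariate. With depth in the fit Hspa5, Calr, Canx, Hsp90b1, Pdia3 and Atf4 lie at 0.00 to 0.04, against -0.26 to -0.37 without it.

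Of the 9 other chaperone and folding genes, 4 followed Hspa5 across libraries at an r above 0.7 with group means removed: Calr, Pdia3 (r = 0.92), Canx (r = 0.91) and Hsp90b1 (r = 0.91). The other 5 had an r of 0.66 (Manf), 0.39 (Pdia6), 0.05 (Pdia4), -0.40 (Sdf2l1) and -0.54 (Hyou1). This split depended on the scaling. With median-ratio rescaling the same 5 had an r of 0.85 (Manf), 0.80 (Pdia6), 0.58 (Pdia4), 0.12 (Sdf2l1) and 0.50 (Hyou1). The correlation of Hspa5 with Calr was r = 0.96 (rho = 0.94; permutation p = 0.00013 for r and 0.00026 for rho, adjusted over 103 relations p = 0.00268 and 0.00597; r = 0.92 without naïve replicates 5 and 1, the 2 libraries farthest from the median of Hspa5 once group means were removed). The correlation of Hspa5 with Atf4, which set the ER arm beside the integrated stress arm, was r = 0.90 (rho = 0.64; permutation p = 0.00246 for r and 0.0376 for rho, adjusted p = 0.00975 and 0.0939; r = 0.79 without the same 2 libraries). After the slope on depth was also removed, r was 0.23 for Hspa5 with Calr and -0.39 for Hspa5 with Atf4. Before that step 6 of 34 other members had an r above 0.7 with Hspa5, against 7.78% of all genes. After it 1 did (Hyou1, a large ER chaperone, r = 0.79), against 0.05% of all genes.

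None of the phosphatase subunits, cochaperones and degradation genes had an unadjusted p under 0.05 in any comparison. Ppp1r15a, the stress-inducible subunit that reverses eIF2α phosphorylation, had 162 ± 12.6 CPM in SCI, 163 ± 33.5 CPM in sham and 167 ± 36.9 CPM in naïve libraries, and Ppp1r15b, the constitutive subunit, had 108 ± 13.1, 110.1 ± 16.6 and 101 ± 15.1 CPM in the same order (SD, n = 5 each). The 3 cochaperones summed to 243 ± 13.4 CPM in SCI, 252 ± 19.0 in sham and 233 ± 12.7 CPM in naïve libraries. The 4 degradation genes summed to 467 ± 16.1 CPM in SCI, 487 ± 29.5 in sham and 458 ± 38.1 CPM in naïve libraries. Herpud1, an ER membrane protein of the degradation complex and a known target of ATF4 and ATF6, had 72.1 ± 5.90 CPM in SCI, 75.1 ± 6.74 in sham and 74.6 ± 7.65 CPM in naïve libraries. The remaining members not given by library (Creb3l2, Chac1, Sesn2, Dnajb9 and those above with means only) had unadjusted p-values above 0.05 in all 3 comparisons.

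Further genes of the same pathways were read from the same fit. Of 40 further integrated stress genes (Atf3, amino acid enzymes and transporters, transfer RNA synthetases, eIF2 and eIF2B subunits), 39 were tested and 0 passed the corrected threshold in any comparison. Their median log2 difference was 0.04 for SCI against sham, 0.11 for SCI against naïve and 0.12 for sham against naïve, against -0.07, 0.08 and 0.17 for all genes. The smallest p in SCI against sham was that of Atf3, a factor induced by axon injury, at 136 ± 26.8 CPM in SCI and 92.8 ± 12.1 CPM in sham (limma, log2 difference 0.53 ± 0.17 SE, adjusted p = 0.897), followed by Pmaip1 at 0.757 ± 1.16 CPM in SCI and 2.75 ± 3.37 CPM in sham. The paper reports no significant difference of Atf3 and proposes that axonal injury while the ganglia were dissociated may raise it. In SCI against naïve, Mthfd2 and Eif2b1 had the smallest p, with 39.5 ± 3.64 and 36.6 ± 1.68 CPM in SCI, against 29.5 ± 7.22 and 27.7 ± 8.85 CPM in naïve libraries. In sham against naïve these were Slc7a11, at 8.13 ± 9.07 CPM in sham and 2.10 ± 1.57 CPM in naïve libraries, and Gars, at 169 ± 28.3 CPM in sham and 208 ± 43.0 CPM in naïve libraries.

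Of 40 further ER folding and degradation genes, 38 were tested and 0 passed, with medians of 0.02, 0.03 and 0.04 in the order of comparisons above. Ern2 and Creld2 had the smallest p in SCI against sham, at 2.09 ± 0.744 and 21.4 ± 1.82 CPM in SCI, against 4.87 ± 1.37 and 29.2 ± 6.10 CPM in sham. Cdk5rap3 and Ero1lb had it in SCI against naïve, at 42.4 ± 4.25 and 41.0 ± 2.66 CPM in SCI, against 32.5 ± 6.39 and 31.5 ± 7.75 CPM in naïve libraries. Creld2 and Derl2 had it in sham against naïve, at 29.2 ± 6.10 and 72.2 ± 8.01 CPM in sham, against 20.6 ± 2.39 and 56.6 ± 10.4 CPM in naïve libraries.

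Of 11 heat shock genes, which serve protein folding outside the ER, 11 were tested and 0 passed. Their median log2 difference was 0.21 for SCI against sham, -0.19 for SCI against naïve and -0.32 for sham against naïve. The medians of all genes were -0.07, 0.08 and 0.17. At an unadjusted p under 0.05, 2 were higher in SCI than in sham and 6 were lower in sham compared with naïve mice. The shares of all genes were 0.65% and 3.19%. The part of depth in the values of these genes was not tested. Bag3, a cochaperone of HSP70, had 237 ± 22.1 CPM in SCI, 188 ± 21.0 CPM in sham and 247 ± 55.1 CPM in naïve libraries. Hspb1, a small heat shock protein of sensory neurons, had 52.0 ± 6.46 CPM in SCI and 39.7 ± 7.68 CPM in sham, and Hsp90aa1 had 175 ± 42.8 CPM in sham and 262 ± 87.5 CPM in naïve libraries. In SCI against naïve, Hspe1 and Hsp90aa1 had the smallest p, at 32.4 ± 2.05 and 207 ± 17.7 CPM in SCI, against 37.2 ± 5.11 and 262 ± 87.5 CPM in naïve libraries.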

How the data were processed

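Single-end reads of 75 nt from 5 SCI, 5 sham and 5 naïve mice were processed by the authors, whose notes name HISAT2, HTSeq, DESeq2 and build mm10. Versions and gene annotation are not given in the sources used here. The deposited signal is named RPKM, but each library's values are whole multiples of 1 step at every gene length (100% whole at a tolerance of 1e-06), so they are reads scaled by 1 number per library (called CPM here) and not divided by length. Of 54232 lines, 27 named by a number (at most 0.21% of reads) and 97 repeats of a symbol were left out. Group means deposited by the authors were not used. Genes with a mean of at least 1 were fitted with limma 3.58.1 (trend) on log2(value + 1) over 15 libraries, Benjamini-Hochberg over 16000 genes. Recovered reads were fitted with DESeq2 1.42.0 and edgeR 4.0.16. The fits were tested on simulated data. Exon lengths came from GENCODE M21. For each comparison, values are printed per library for the 5 members with the smallest p, those called by a count model or without overlap, and Hspa5, Atf4, Ddit3, Xbp1 and Trib3. The other members at an unadjusted p under 0.05 (Canx, Pdia3, Hsp90b1 and Eif2ak4) were added after their values were seen. Of further lists the 2 genes with the smallest p are named. Correlations used 100000 permutations within groups. Alternatives were other pseudocounts, filters, scalings, weights, covariates and left-out libraries. Members and lists were chosen with earlier results of these data known. Each library came from 1 mouse.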

Additional observations from a re-analysis of the deposited data

Results flagged for a closer look

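In each group of 5 libraries, the highest and lowest value of each gene was compared with its neighbour, and a library was noted when the gap took more than 0.71 of the group's range (Dixon's criterion). This was run on 105 gene and group pairs, of which chance notes about 1 in 20, and 10 were noted. Sham replicate 2, the shallowest sham library, gave 4 of them: Eif2ak4 at 30.5 CPM (other sham libraries 53.4 to 54.9), Asns at 146 CPM (95.1 to 109.5), Ppp1r15b at 80.5 CPM (116 to 119) and Edem1 at 37.4 CPM (72.2 to 80.4). Sham replicate 4 gave 2: Ppp1r15a at 222 CPM (140.2 to 158) and Dnajb9 at 61.0 CPM (35.8 to 40.5). The naïve group gave Xbp1 at 112 CPM in replicate 4 (82.1 to 88.1) and Hyou1 at 163 CPM in replicate 5 (139 to 144), the shallowest but 1 and the deepest naïve library. The SCI group gave Eif2ak3 at 77.7 CPM in replicate 4 (70.8 to 72.8) and Eif2ak4 at 34.3 CPM in replicate 3 (40.1 to 42.4). The part of depth in these values was not tested per library.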

How the results depend on the processing

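Of 30 alternatives to the limma fit, 29 called 0 members in SCI against sham, 30 in SCI against naïve and 27 in sham against naïve. Library quality weights called 8 members in SCI against sham (4 higher, 4 lower) and 12 in sham against naïve (5 higher, 7 lower), beside 1023 higher and 2037 lower, and 2686 higher and 945 lower, of all genes. DESeq2 called 2 of the 6 members it adjusted in sham against naïve (4 of all genes in SCI against sham and 233 in sham against naïve, all lower), but 0 members with its filter set at 0.1 (4 and 0 of all genes) or with depth as a covariate (2 and 1). Leaving out each library in turn called 0 to 8 members in sham against naïve and 0 in the other comparisons, and the 8 came without naïve replicate 5. Leaving out values beyond 50% of the group mean called 98, 44 and 642 of all genes in the 3 comparisons and 0 members. The median log2 difference of the members moved beyond the spread between libraries with the scaling: for SCI against sham from the deposited -0.01 to 0.0595 (DESeq2 at either filter), 0.0676 (edgeR) and 0.0613 (median-ratio rescaling), for SCI against naïve from 0.03 to -0.0597, -0.0315 and -0.0452, and for sham against naïve from 0.04 to -0.1012, -0.0995 and -0.1006. The median of all genes moved alike: in sham against naïve the members lay at -0.1321 relative to it on the deposited scaling and at -0.1259, -0.1351 and -0.1435 in these alternatives. This offset was 0.0043 with depth as a covariate, -0.0105 with depth in DESeq2 and -0.06 without the 2 shallowest libraries. Left-out libraries moved the median of the members to between -0.0274 and 0.0173, between -0.0115 and 0.0484, and between 0.0214 and 0.0973 (without naïve replicate 5) in the same comparisons. The cause was not tested.

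Of 599 values of 20 named differences under the alternatives, 15 changed sign, none of them by leaving out 1 library. Trib3 has no value under the filter at a mean above 10. With depth as a covariate these were, in sham against naïve, Hspa5 (0.0044), Calr (0.0286), Hsp90b1 (0.0061), Atf4 (0.0273), Canx (0.0116), Pdia3 (0.0426) and Eif2ak4 (-0.0012), and with depth in DESeq2 Hspa5 (0.0021), Calr (0.0271), Hsp90b1 (0.0019), Atf4 (0.0248), Canx (0.0099) and Pdia3 (0.0401). Without the 2 shallowest libraries they were Hspa5 (0.0184) and Calr (0.0195) in SCI against naïve. With the slope on depth removed, the correlation of Hspa5 was -0.39 with Atf4, -0.57 with Canx and -0.31 with Pdia3. Fits of DESeq2 with another filter or with depth, and without the 2 shallowest libraries, were chosen after seeing the data.

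Replicate numbers did not pair the libraries: same-numbered libraries deviated with correlations of -0.22 to 0.22. With a replicate block, 0 members were called in each comparison, and the median log2 difference was unchanged at -0.01, 0.03 and 0.04. At unadjusted p under 0.05 the block left 2 members higher and 5 lower in sham against naïve (11.5% and 2.42% of all genes).

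Depth limits the low genes most: at the shallowest library 1 read is 0.791 CPM, so Trib3 and Chac1 rest on few reads there. The 5 mice a group and the alignment of depth with group limit what the sham against naïve comparison can separate. RNA counts do not read eIF2α phosphorylation, Xbp1 splicing or translation.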
